A study of Mus musculus with 8 samples.

Results

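The immunoproteasome and the MHC class I loading machinery were followed here as 10 genes, Psmb8, Psmb9, Psmb10, Psme1, Psme2, Tap1, Tap2, Tapbp, B2m and Nlrc5, among 19946 genes measured in mouse spleen. For each gene, the probe sets that the array annotation assigned to it alone were collected, and the one with the highest mean stood for the gene. The RNA came from collagenase- and DNase-digested spleens of 3 Sle1.3/E2-2het mice, 3 Sle1.3 mice and 2 wild-type mice (WT), all labelled as C57/B6, with 1 Affymetrix Mouse Gene 1.0 ST array per mouse. Sle1.3 mice are a lupus-prone strain, and the Sle1.3/E2-2het mice carry in addition only 1 working copy of E2-2, the transcription factor encoded by Tcf4, on which plasmacytoid dendritic cells depend. The labels give no age and name no tissue to which the E2-2 defect is restricted. The sex labels were male, male and female for Sle1.3/E2-2het mice 1 to 3, female, female and male for Sle1.3 mice 1 to 3, and male for both WT mice.

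Proteasomes cut cytosolic proteins into peptides. Cells exposed to interferon exchange the 3 constitutive catalytic subunits for the inducible β5i (Psmb8), β1i (Psmb9) and β2i (Psmb10), and cap the particle with the activator PA28 (Psme1 and Psme2). Peptides then pass through the transporter TAP (Tap1 and Tap2) into the endoplasmic reticulum, where tapasin (Tapbp) holds TAP against a class I heavy chain paired with β2-microglobulin (B2m). NLRC5 is a transactivator of these genes, and lymphocytes keep the pathway active without infection.

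The values below are log2 array intensities, and a difference between groups is a log2 difference with its standard error. Differences were tested with limma (two-sided), with Benjamini-Hochberg adjustment over 14959 genes, and a gene passed at an adjusted p under 0.05. All 10 genes lay above the filter on low values. The arrays fell into 2 sets: in the arrays of Sle1.3/E2-2het mouse 3 and Sle1.3 mouse 3 the dimmest probe set read 11.2 and 10.9 on the linear scale, and in the other 6 arrays 4.57 to 5.11, so these 2 formed a second set without any WT mouse. The first set held 2 mice of each genotype, and results that differed there are given for it as well. Tcf4 itself was 8.18, 8.13 and 9.25 in Sle1.3/E2-2het mice 1 to 3, against 8.67, 8.63 and 9.06 in Sle1.3 mice and 9.02 and 8.80 in WT mice, so mouse 3 labelled Sle1.3/E2-2het did not show the lower Tcf4 of the other 2. Sle1.3 mouse 3 is labelled male, but its Xist, an RNA made from the inactive X chromosome, was 11.90 and its Y-linked Kdm5d 4.19, against a Kdm5d of 7.40 and 7.58 in the WT males. Xist was 10.68 to 11.90 in all 3 Sle1.3 mice and in Sle1.3/E2-2het mouse 3, and 3.75 to 4.29 in both WT mice and Sle1.3/E2-2het mice 1 and 2. By these expressed genes Sle1.3 against WT was a comparison of females with males, and so, the other way round, was Sle1.3/E2-2het against Sle1.3 in the first array set. Genotype and sex cannot be told apart in either. The B cell gene Cd79a (11.20 to 12.34 over the 8 arrays) and the T cell gene Cd3e (8.85 to 10.06) were present in every array, as splenocytes should have them. The 3 comparisons share mice, so they are not independent of each other.

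Tap1 was lowest in Sle1.3/E2-2het spleens, at 0.537 times the WT level, and it was the only one of the 10 genes to pass when genotype alone was fitted to all 8 arrays. Tap2 and Tapbp had the same order of group means, with Sle1.3/E2-2het lowest and WT highest, although the Sle1.3 and WT means were nearly equal under quantile normalization. Psmb8, Psmb9 and Psmb10 had their highest mean in Sle1.3 spleens, and their Sle1.3/E2-2het and WT means lay within 0.19 of each other. In Sle1.3/E2-2het mice 9 of the 10 genes had a lower mean than in Sle1.3 mice, and none of these 9 differences passed in that fit. The spleen is a mixture of cells, and fewer cells of a type cannot be told apart here from less RNA per cell.

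**Figure D1:**
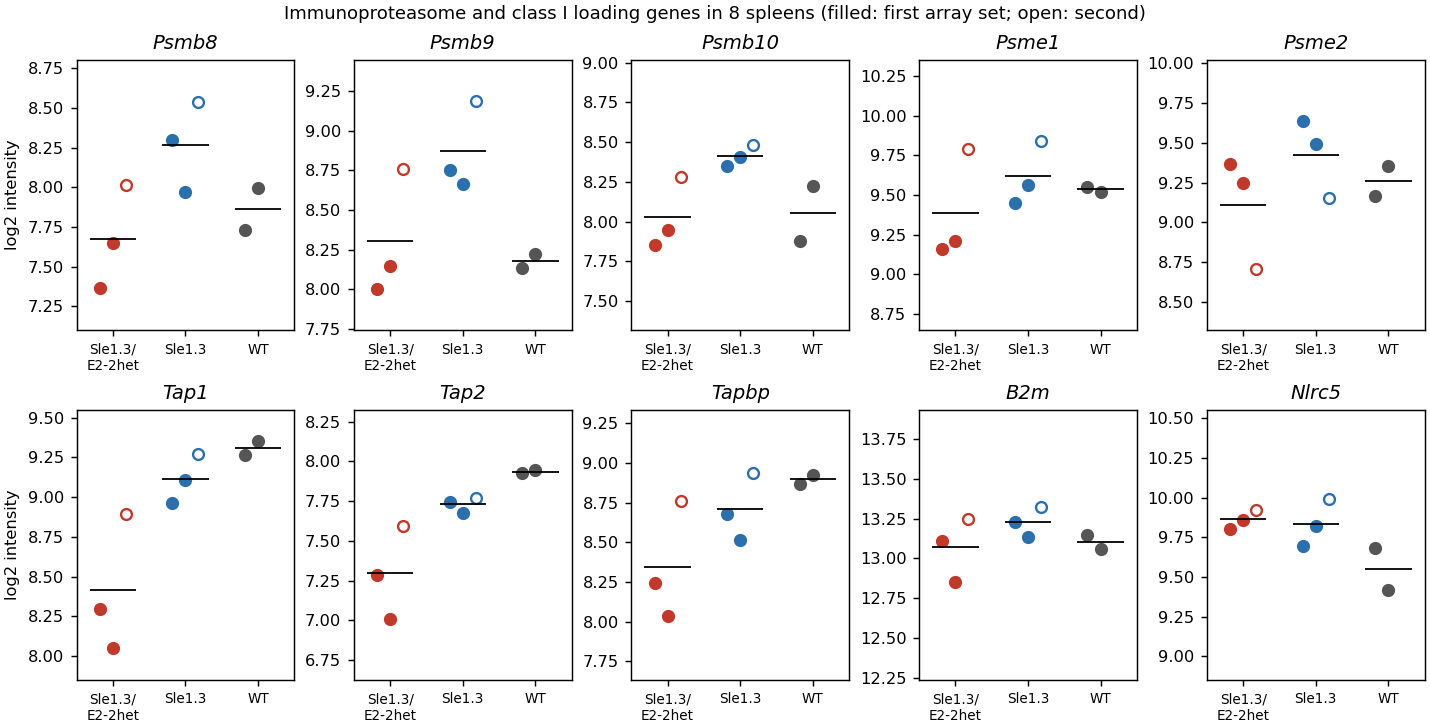
Log2 intensity (y axis) of the 10 genes, a panel each, in every mouse by genotype (x axis, Sle1.3/E2-2het, Sle1.3 and WT); bars are group means, filled points are the first array set and open points the second. Tap1 reached 9.27 and 9.35 in WT mice, against 8.30, 8.05 and 8.90 in Sle1.3/E2-2het mice, while the Psmb9 values of WT lay below all 3 Sle1.3 values.

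The catalytic subunits were compared first. Psmb8, which encodes the chymotrypsin-like β5i, was 7.37, 7.65 and 8.01 in Sle1.3/E2-2het mice, 8.30, 7.97 and 8.54 in Sle1.3 mice and 7.73 and 8.0 in WT mice. Psmb9, which encodes β1i, was 8.0, 8.15 and 8.76 in Sle1.3/E2-2het mice, 8.75, 8.66 and 9.19 in Sle1.3 mice and 8.13 and 8.23 in WT mice. Psmb10, which encodes the trypsin-like β2i, was 7.85, 7.95 and 8.28 in Sle1.3/E2-2het mice, 8.35, 8.41 and 8.48 in Sle1.3 mice and 7.88 and 8.23 in WT mice. For Psmb9 and Psmb10 every Sle1.3 value lay above both WT values, as it did for 21.6% of all genes. For Psmb10 every Sle1.3 value also lay above every Sle1.3/E2-2het value, as it did for 4.33% of all genes. For Psmb9 the Sle1.3/E2-2het mouse of the second array set reached into the Sle1.3 range. Psmb9 and Psmb10 also separated fully by Xist: Psmb9 was 8.66 to 9.19 in the 4 arrays with Xist and 8.0 to 8.23 in the 4 without, and Psmb10 was 8.28 to 8.48 and 7.85 to 8.23. The other 8 genes overlapped between these arrays, and among all genes 3.45% were higher and 0.822% lower without overlap in the arrays with Xist.

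Between Sle1.3 and WT the difference of Psmb9 was 0.69 ± 0.25, or 1.61-fold, and did not pass (limma adjusted p = 0.124). In the first array set it was 0.53 ± 0.15, or 1.44-fold, and passed (limma adjusted p = 0.0362), in a comparison in which 5.16% of all genes passed as higher. Blocking on the replicate number grouped the same-numbered arrays of all genotypes, so the WT mice were matched by number as well. It also brought Psmb9 past the threshold (limma adjusted p = 0.0176, with 9.19% of all genes passing as higher). Blocking on the array set did so too (limma adjusted p = 0.0232, 7.46% of genes). With quantile normalization 2 of the 10 passed as higher in limma, Psmb9 (adjusted p = 0.0207) and Psmb10 (0.048), against 2.81% of all genes. With quantile normalization and the array-set block, chosen after the data were seen, Psmb8, Psmb9, Psmb10 and Psme2 passed as higher (6.38% of genes), and in the first array set with quantile normalization Psmb9, Psmb10 and Psme2 did (3.71%). Psmb8 (0.40 ± 0.24, adjusted p = 0.324) and Psmb10 (0.36 ± 0.19, adjusted p = 0.289) had differences in the same direction that did not pass in limma.

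In Sle1.3/E2-2het relative to Sle1.3 mice, the difference was -0.59 ± 0.21 for Psmb8, -0.57 ± 0.22 for Psmb9 and -0.39 ± 0.17 for Psmb10, and none passed (limma adjusted p from 0.857 to 1.00). Within same-numbered mice, Psmb9 was lower in Sle1.3/E2-2het by 0.75, 0.52 and 0.43 in pairs 1 to 3. Psmb8 was lower in every pair as well, with differences of -0.93, -0.32 and -0.52. With the replicate number as a block, Psmb9 (adjusted p = 0.0308) and Psmb8 (adjusted p = 0.0486) passed as lower in limma, where 1.2% of all genes passed in that direction.

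Set against WT, the Sle1.3/E2-2het differences of the catalytic subunits were -0.19 ± 0.24 for Psmb8, 0.12 ± 0.25 for Psmb9 and -0.03 ± 0.19 for Psmb10. None passed, and none kept its sign under every scaling: with quantile normalization Psmb8 was at 0.08 and Psmb10 at 0.25, and with each array's median subtracted Psmb9 was at -0.06. Equality of Sle1.3/E2-2het and WT was not shown by these values.

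The constitutive counterparts serve as an internal scale, because a ratio within an array is free of the array's overall brightness. Psmb5, Psmb6 and Psmb7, which encode the standard β5, β1 and β2, had a median difference of -0.16 in Sle1.3/E2-2het relative to Sle1.3 mice, -0.01 between Sle1.3 and WT and -0.17 between Sle1.3/E2-2het and WT, and none of the 3 passed. The log2 ratio of Psmb9 to Psmb6, relative to the WT mean, was 0.07, 0.51 and 0.31 in Sle1.3/E2-2het mice, 0.56, 0.64 and 0.91 in Sle1.3 mice and -0.09 and 0.09 in WT mice. The 3 groups of this ratio did not overlap except for Sle1.3/E2-2het mouse 1, which lay inside the WT range. The ratio differed by 0.71 between Sle1.3 and WT (exact permutation test, two-sided, p = 0.2) and by -0.41 in Sle1.3/E2-2het relative to Sle1.3 mice (p = 0.1). These are the smallest p values that 3 against 2 and 3 against 3 mice can give, and over the 9 ratio tests the adjusted p ran from 0.45 to 1.

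For the other inducible subunits the ratios overlapped more. Psmb8 over Psmb5 was -0.47, 0.36 and 0.10 in Sle1.3/E2-2het mice, 0.23, 0.33 and 0.68 in Sle1.3 mice and -0.21 and 0.21 in WT mice. Psmb10 over Psmb7 was -0.12, -0.27 and 0.20 in Sle1.3/E2-2het mice, 0.01, 0.30 and 0.27 in Sle1.3 mice and -0.13 and 0.13 in WT mice. For Psmb10 over Psmb7, 1 Sle1.3 mouse lay inside the WT range, and for Psmb8 over Psmb5 all 3 Sle1.3 values lay above it, the lowest by a small margin, while the Sle1.3/E2-2het mice spread on both sides of the WT mean for both ratios.

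**Figure D2:**
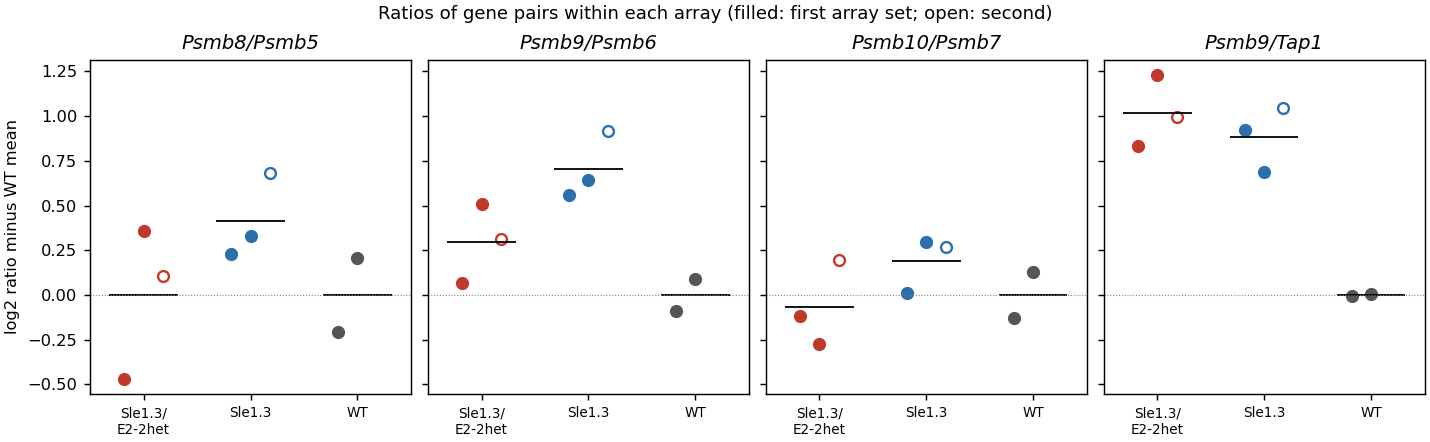
Log2 ratio of each inducible subunit to its constitutive counterpart, and of Psmb9 to Tap1, relative to the WT mean (y axis), in every mouse by genotype (x axis, Sle1.3/E2-2het, Sle1.3 and WT). The Psmb9 to Tap1 ratio lay between 0.69 and 1.23 in all 6 Sle1.3-carrying mice and within 0.00 of the WT mean in both WT mice.

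Psme1, the α subunit of PA28, was 9.16, 9.21 and 9.79 in Sle1.3/E2-2het mice, 9.45, 9.57 and 9.84 in Sle1.3 mice and 9.55 and 9.52 in WT mice. Psme2, the β subunit, was 9.37, 9.25 and 8.71 in Sle1.3/E2-2het mice, 9.64, 9.49 and 9.15 in Sle1.3 mice and 9.17 and 9.35 in WT mice. Over all arrays the groups of both genes overlapped in every comparison. Within the first array set Psme2 was higher in both Sle1.3 than in both WT mice, and Psme1 was lower in both Sle1.3/E2-2het than in both WT mice. Against WT, Psme2 differed by 0.17 ± 0.23 in Sle1.3 mice over all arrays and by 0.53 in the first set with quantile normalization, where it passed (limma adjusted p = 0.0479). By the probe set used, Psme2 ran against its partner across array sets: the second-set arrays gave the lowest Psme2 value of both Sle1.3 genotypes and the highest Psme1 value. The differences in Sle1.3/E2-2het relative to Sle1.3 mice were -0.23 ± 0.20 for Psme1 and -0.32 ± 0.21 for Psme2, and neither passed. A second probe set that the annotation shares between Psme2 and Psme2b gave -0.55 for the same comparison. It was 8.48, 8.74 and 9.13 in Sle1.3/E2-2het mice and 9.16, 9.25 and 9.60 in Sle1.3 mice. Its second-set values were thus the highest of both genotypes, as for Psme1, so the array-set pattern of Psme2 turned with the probe set.

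Tap1, the first chain of the TAP transporter, was 8.30, 8.05 and 8.90 in Sle1.3/E2-2het mice, 8.96, 9.11 and 9.27 in Sle1.3 mice and 9.27 and 9.35 in WT mice. Tap2, the second chain, was 7.29, 7.01 and 7.59 in Sle1.3/E2-2het mice, 7.75, 7.68 and 7.77 in Sle1.3 mice and 7.93 and 7.94 in WT mice. Tapbp, which encodes tapasin, was 8.24, 8.03 and 8.76 in Sle1.3/E2-2het mice, 8.68, 8.51 and 8.94 in Sle1.3 mice and 8.87 and 8.93 in WT mice. For all 3 genes every Sle1.3/E2-2het value lay below both WT values, as it did for 23.2% of all genes. For Tap1 and Tap2 every Sle1.3/E2-2het value also lay below every Sle1.3 value, as it did for 4.33% of all genes. Sle1.3/E2-2het mouse 2 was the lowest array for each of the 3, and mouse 3, of the second array set, the highest of its genotype.

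Against WT, Tap1 fell by 0.90 ± 0.24 in Sle1.3/E2-2het mice (limma adjusted p = 0.0475). Among all genes 3.73% passed as lower and 3.46% as higher in this comparison, and among the 10 genes 1 and 0 did. The differences of Tap2 (-0.64 ± 0.20, adjusted p = 0.0675) and Tapbp (-0.55 ± 0.23, adjusted p = 0.144) did not pass in limma. The annotation shares 2 further Tapbp probe sets with other genes, and these were not used. They went the other way, at 0.255 and 0.322 over all arrays and 0.07 and 0.04 in the first array set. The Tap1 call was lost without either WT mouse, without Sle1.3 mouse 1 or 2, or without Sle1.3/E2-2het mouse 1 or 2, with limma adjusted p from 0.0646 to 0.329, and it was kept without Sle1.3 mouse 3 (0.0323) or Sle1.3/E2-2het mouse 3 (0.00665).

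In the first array set, where the Sle1.3/E2-2het and WT mice were all male by label and by their Y-linked genes, all 3 genes fell. Tap1 was at 0.455 times the WT level (-1.14 ± 0.16, limma adjusted p = 0.00149). Tap2 was at 0.579 times (adjusted p = 0.00538) and Tapbp at 0.591 times the WT level (adjusted p = 0.00605). In that set 23.4% of all genes passed as lower, so 3 of 10 is near the background. With the replicate block over all 8 arrays the same 3 genes passed in limma, with adjusted p of 0.000613 (Tap1), 0.00316 (Tap2) and 0.00271 (Tapbp), against 27.3% of all genes. With the array set as a block they passed as well, with Tap1 at -1.06 (0.00138), again against 23.4% of genes. Subtracting each array's median left Tap1 at -1.08 (adjusted p = 0.0041), Tap2 at -0.82 and Tapbp at -0.74 over all 8 arrays in limma, with the median of all genes at -0.19 and 23.3% of genes passing as lower. Quantile normalization left Tap1 at -0.62 (limma adjusted p = 0.0488, 2.1% of genes), Tap2 at -0.39 (0.132) and Tapbp at -0.28 (0.264). With quantile normalization and the array-set block, or in the first set, Tap1 alone of the 3 passed, among 6.66% and 6.1% of genes that passed as lower.

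In Sle1.3/E2-2het relative to Sle1.3 mice the difference of Tap1 was -0.70 ± 0.21 and did not pass over all arrays (limma adjusted p = 0.621). The same-numbered pairs differed by -0.67, -1.06 and -0.37. Without Sle1.3/E2-2het mouse 3 the difference was -0.94 and passed (limma adjusted p = 0.0439), and in the first array set it was -0.86 ± 0.16, or 0.55-fold (adjusted p = 0.0404), where 0.388% of all genes passed as lower. In that set both Sle1.3/E2-2het mice were male and both Sle1.3 mice female by Xist. With the replicate block the limma adjusted p of Tap1 was 0.0231, and with the array set as a block 0.0469, where 0.461% of all genes passed as lower. Quantile normalization ended the call with the array-set block (limma adjusted p = 0.0522, 0.381% of genes) and in the first set (0.0907, 0.301% of genes). Tap2 differed by -0.44 ± 0.18 and Tapbp by -0.36 ± 0.21, and neither passed, with or without the block. Between Sle1.3 and WT the 3 genes differed by -0.20 (Tap1), -0.20 (Tap2) and -0.19 (Tapbp), with standard errors from 0.20 to 0.24, and none passed. Quantile normalization brought these differences to -0.01 (Tap1), -0.02 (Tap2) and -0.01 (Tapbp), and the array-set block to -0.36, -0.29 and -0.35.

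Cell type markers were summed within each array and set beside the TAP values. The summed level of 8 T cell markers, as log2, was 11.56, 11.54 and 12.18 in Sle1.3/E2-2het mice, 11.72, 12.03 and 11.89 in Sle1.3 mice and 12.04 and 12.22 in WT mice. The summed level of 8 B cell markers was 13.35, 13.35 and 13.91 in Sle1.3/E2-2het mice, 13.51, 13.53 and 13.74 in Sle1.3 mice and 13.98 and 13.70 in WT mice. Thus the Sle1.3/E2-2het arrays with the lowest Tap1, Tap2 and Tapbp were also those with the lowest lymphocyte markers. The highest T cell sum (12.22) and the highest Tap1 (9.35) were both in WT mouse 2, while the highest B cell sum (13.98) was in WT mouse 1. Sle1.3/E2-2het mouse 3, on an array of the second set, had both lymphocyte sums above every Sle1.3 value. Its Tap1 (8.90) and Tap2 (7.59) lay below every Sle1.3 value. The sum of 9 erythroid precursor markers ran the other way, at 11.54, 11.14 and 10.67 in Sle1.3/E2-2het mice, 9.97, 9.45 and 10.05 in Sle1.3 mice and 9.58 and 9.52 in WT mice. Neutrophil markers summed to 13.24 to 14.72 in Sle1.3/E2-2het, 13.13 to 14.87 in Sle1.3 and 11.10 to 11.62 in WT mice, and so separated WT from both other genotypes. The sum of 8 plasmacytoid dendritic cell markers, Tcf4 among them, was 11.35, 11.46 and 12.01 in Sle1.3/E2-2het mice, 11.38, 11.52 and 11.60 in Sle1.3 mice and 12.21 and 12.12 in WT mice. Bright markers weigh most in such a sum, and these markers differed in direction. In Sle1.3/E2-2het mouse 3 Ly6d (11.11) and Tcf4 (9.25) lay above both WT values. Siglech (6.71), Ccr9 (6.56) and Spib (9.27) lay below both, and the remaining markers are not given here. The part of these cell types in the TAP and proteasome results was not tested.

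Psmb9 and Tap1 lie head to head, and RefSeq's annotation places Psmb8 and Tap2 beside them in the MHC. The stretch between the Psmb9 and Tap1 starts is shown because the Psmb9 to Tap1 ratio differed between genotypes although their starts are neighbours. It spans chr17:34187331-34187555 (GRCm38.p6, plus strand, sequence from RefSeq's gene starts), with matches to a Y box (CCAAT) and an E box (CANNTG) on either strand in capitals.
Psmb9-Tap1 intergenic: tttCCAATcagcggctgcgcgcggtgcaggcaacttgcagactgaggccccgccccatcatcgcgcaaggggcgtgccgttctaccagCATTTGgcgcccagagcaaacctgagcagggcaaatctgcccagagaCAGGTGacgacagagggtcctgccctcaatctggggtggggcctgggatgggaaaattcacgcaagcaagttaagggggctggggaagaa
The ratio of Psmb9 to Tap1 within an array, chosen after the values were seen, was 0.84, 1.23 and 0.99 in Sle1.3/E2-2het mice, 0.92, 0.69 and 1.05 in Sle1.3 mice and 0.00 and 0.00 in WT mice, as log2 relative to the WT mean, and it is given as a description without a test. All 6 Sle1.3-carrying mice therefore stood apart from both WT mice, the 4 of the first array set within that set, while the Sle1.3/E2-2het and Sle1.3 ranges overlapped. Such separation from WT was common among single genes: 25.9% were higher and 23.2% lower without overlap in Sle1.3/E2-2het mice, and 21.6% and 24.4% in Sle1.3 mice. The share of gene pairs whose ratio separated was not computed. The mean differences of the Psmb9 to Tap1 ratio were 1.02 for Sle1.3/E2-2het and 0.89 for Sle1.3 against WT and 0.13 between the Sle1.3 genotypes. Quantile normalization of the arrays left them at 1.03, 0.89 and 0.13. Without further scaling, the ratio in Sle1.3 mice rested more on Psmb9 being higher than WT (0.69) than on Tap1 being lower (-0.20). In Sle1.3/E2-2het mice it rested on Tap1 being lower (-0.90) rather than on Psmb9 (0.12). This split depended on the scaling. With quantile normalization Psmb9 was at 0.88 and Tap1 at -0.01 in Sle1.3 mice. In Sle1.3/E2-2het mice Tap1 was then at -0.62, which left a larger part of the unchanged ratio to Psmb9.

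B2m, the light chain of all class I molecules, varied least of the 10 genes. It was 13.11, 12.85 and 13.25 in Sle1.3/E2-2het mice, 13.23, 13.13 and 13.32 in Sle1.3 mice and 13.15 and 13.06 in WT mice, with a standard deviation of 0.14 over the 8 arrays. Its mean lay above that of 99.96% of genes, and any effect of such brightness on its spread was not tested. The groups overlapped, and no difference passed. The largest was -0.16 ± 0.16, in Sle1.3/E2-2het relative to Sle1.3 mice, and the lower value stood in Sle1.3/E2-2het in each of the 3 same-numbered pairs.

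**Figure D3:**
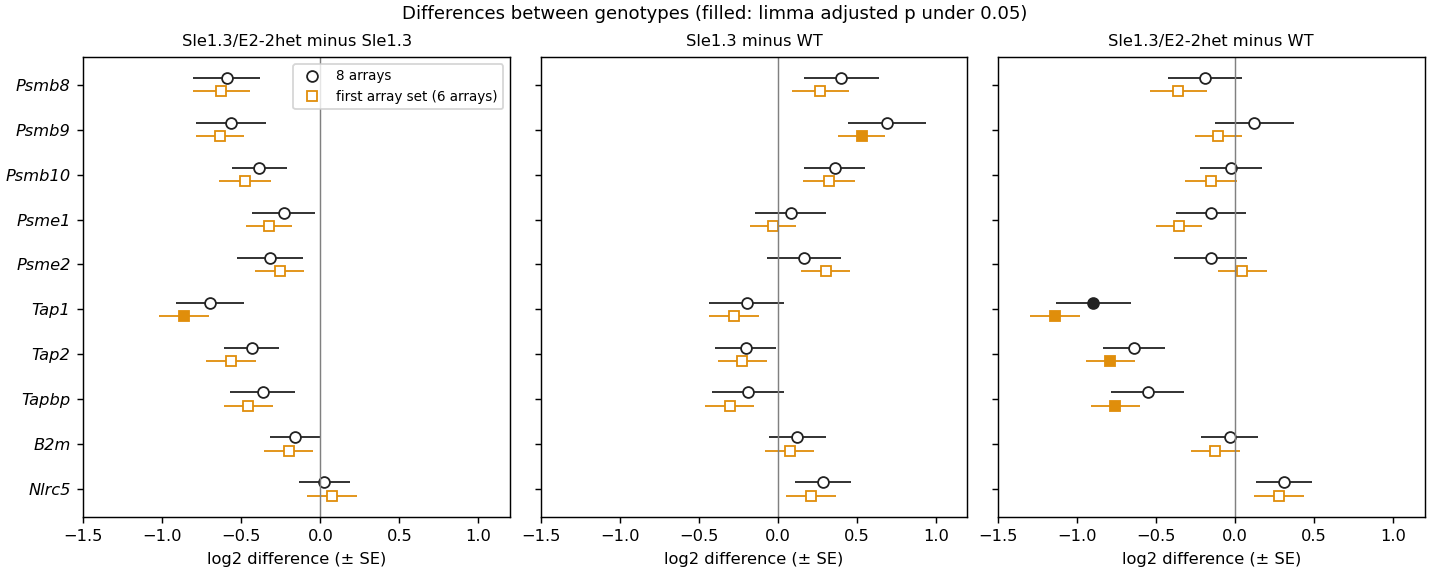
Log2 difference with its standard error as bars (x axis) for each of the 10 genes (y axis), a panel per comparison (Sle1.3/E2-2het minus Sle1.3, Sle1.3 minus WT, Sle1.3/E2-2het minus WT), over all 8 arrays (circles) and in the first array set alone (squares), with symbols filled where the limma adjusted p was under 0.05. Tap1, Tap2 and Tapbp lie furthest left in Sle1.3/E2-2het minus WT, and Psmb9 furthest right in Sle1.3 minus WT.

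Nlrc5 did not give one answer over its probe sets. The probe set used, with the highest mean, was 9.80, 9.86 and 9.92 in Sle1.3/E2-2het mice, 9.70, 9.82 and 9.99 in Sle1.3 mice and 9.68 and 9.42 in WT mice. By that probe set the gene was level between the Sle1.3 genotypes (0.03 ± 0.16), and it was 0.31 ± 0.18 higher in Sle1.3/E2-2het than in WT mice, which did not pass (limma adjusted p = 0.257). Nlrc5 has 19 probe sets of its own, and the others did not follow it. In Sle1.3/E2-2het relative to Sle1.3 mice, 18 of 19 were below 0, with a median of -0.36, and between Sle1.3/E2-2het and WT 16 of 19 were below 0, with a median of -0.44. The mean over the 19 was -0.37 ± 0.21 against WT in Sle1.3/E2-2het mice and did not pass over all arrays (limma adjusted p = 0.249). It passed as lower in the first array set, at -0.55 ± 0.15 (limma adjusted p = 0.0181), and with the replicate block (adjusted p = 0.0136). With the highest-mean probe set per gene, 23.4% and 27.3% of all genes passed as lower in these 2 settings. Between Sle1.3 and WT 11 of the 19 were below 0 and 8 above, with a median of -0.07. By the probe set used, Nlrc5 passed as higher against WT in Sle1.3/E2-2het mice with quantile normalization and the array-set block (0.58, limma adjusted p = 0.0385, 7.09% of genes) or in the first set (0.63, 0.0378, 6.95% of genes). The direction for Nlrc5 thus turned with the choice of probe set.

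**Figure D4:**
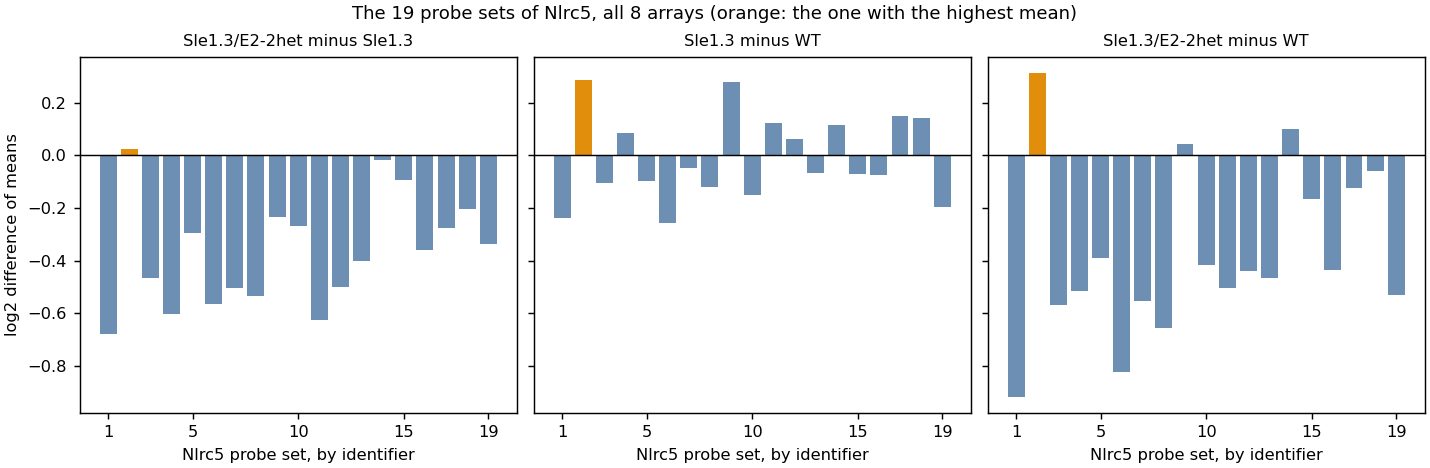
Log2 difference (y axis) of each of the 19 Nlrc5 probe sets, in order of their identifiers (x axis), for the 3 comparisons over all 8 arrays. The probe set used, with the highest mean, is drawn in orange and lies at 0.03 in Sle1.3/E2-2het minus Sle1.3 while the other 18 lie below 0.

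Across the 10 genes, the median difference was -0.37 in Sle1.3/E2-2het relative to Sle1.3 mice, where the median of all genes was 0.00. It was 0.15 between Sle1.3 and WT, against 0.03 over all genes, and -0.15 between Sle1.3/E2-2het and WT, against -0.01 over all genes. Over all arrays 0 of 10 passed in Sle1.3/E2-2het relative to Sle1.3 mice in limma, where 0.0134% of all genes passed as lower and 0% as higher, and 5 of the 10 were lower at an unadjusted p under 0.05, against 2.71% of all genes. In all 3 same-numbered pairs 9 of 10 were lower, Nlrc5 being the exception. The share of all genes lower in all 3 pairs was not computed, and the pairing itself came from these data. Groups without overlap, with Sle1.3/E2-2het lower, were found for Psmb10, Tap1 and Tap2, or 3 of 10, against 4.33% of all genes, and with Sle1.3/E2-2het higher for 0 of 10, against 3.04%. In the first array set 9 of 10 had no overlap and were lower, against 25.2% of all genes. Between Sle1.3 and WT 0 of 10 passed in limma, where 2.66% of all genes passed as higher and 3.22% as lower, and 1 of the 10 was higher at an unadjusted p under 0.05, against 10.2% of all genes. Groups without overlap were higher in Sle1.3 for Psmb9, Psmb10 and Nlrc5, against 21.6% of all genes, and lower for Tap2, against 24.4%. Relative to WT, Sle1.3/E2-2het groups without overlap were lower for Tap1, Tap2 and Tapbp, against 23.2% of all genes, and higher for Nlrc5, against 25.9%.

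The highest array was Sle1.3 mouse 3 for 7 of the 10 genes, on an array of the second set, Sle1.3 mouse 1 for Psme2, and WT mouse 2 for Tap1 and Tap2. The lowest array was a Sle1.3/E2-2het mouse for 9 of the 10, and WT mouse 2 for Nlrc5. The shares of all genes with these highest and lowest arrays were not computed. The array of Sle1.3 mouse 3 had a median of 6.17 over all probe sets, against 5.83 to 5.95 in the first set. The standard deviation over the 8 arrays ran from 0.14 for B2m to 0.48 for Tap1.

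Start-site windows of 250 bases before to 50 after the start were found in the RefSeq table (GRCm38.p6) for 8 of the 10 genes, as 9 windows. Among 32851 windows of this length, searched on both strands, the core of the interferon-stimulated response element (GAAA, 2 further bases and GAAA) was in 3.44%, the gamma-activated sequence (TTCNNNGAA) in 8.3%, the Y box in 37.4% and the E box in 72.3%. The response element core was found for B2m and Psme1, the gamma-activated sequence for Psmb8, the Y box for B2m, Psmb9, Tap1 and Tapbp, and the E box, the class of site that E2-2 and other E proteins bind, for Psmb9, Psmb10, Tap1 and Tapbp. The windows before the B2m and Tapbp starts are shown for 2 genes of the loading complex, B2m as the least shifted of them, with motif matches in capitals.
B2m chr2:122147437-122147686 (plus strand): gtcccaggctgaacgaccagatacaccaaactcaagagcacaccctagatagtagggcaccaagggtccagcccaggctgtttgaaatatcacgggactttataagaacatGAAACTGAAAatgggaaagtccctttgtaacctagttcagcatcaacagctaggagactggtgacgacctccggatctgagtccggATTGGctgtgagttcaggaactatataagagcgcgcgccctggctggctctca
Tapbp chr17:33919228-33919477 (plus strand): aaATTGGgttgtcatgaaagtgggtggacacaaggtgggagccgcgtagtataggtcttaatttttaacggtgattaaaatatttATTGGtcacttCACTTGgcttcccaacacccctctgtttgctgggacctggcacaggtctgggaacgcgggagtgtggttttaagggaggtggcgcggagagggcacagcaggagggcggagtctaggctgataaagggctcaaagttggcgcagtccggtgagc
The capitals in the B2m window are the response element core and a Y box, and those in the Tapbp window are 2 Y boxes and an E box. An E box was present both for Tap1, which fell in Sle1.3/E2-2het relative to WT spleens, and for Psmb10 and Psmb9, and a match says nothing on binding. The E box and Y box matches of Psmb9 and Tap1 are the same bases of their shared stretch, read on opposite strands.

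Of 11 structural 20S subunits, 17 measured cap subunits and 8 assembly factors and other activators, none passed in limma when genotype alone was fitted to all 8 arrays. Their medians in Sle1.3/E2-2het relative to Sle1.3 mice were -0.11, -0.13 and 0.07, and between Sle1.3 and WT 0.18, -0.09 and -0.07. Psmd11, a cap subunit, differed by -0.50 ± 0.19 between Sle1.3/E2-2het and WT (limma adjusted p = 0.112). In that comparison 5 of the 17 cap subunits passed as lower in the first array set, against 23.4% of all genes, and 4 with the replicate block, against 27.3%. For Sle1.3 against WT, 1 cap subunit passed as lower with either block, where 20.3% of all genes did with the replicate block. With quantile normalization 1 passed as higher, against 2.81% of all genes. Of the assembly factors and activators 1 passed as lower for Sle1.3/E2-2het against WT, in the first set and with either block. Among all genes 23.4% did so in the first set and with the array-set block, and 27.3% with the replicate block. In Sle1.3 mice 1 passed as lower with the replicate block, against 20.3% of all genes.

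None of the class I heavy chains or other loading genes passed in limma when genotype alone was fitted. Of 15 listed heavy chains 7 had a probe set of their own, and the classical H2-K1 and H2-D1 were not analysed here. The median of the 7 was -0.30 in Sle1.3/E2-2het relative to Sle1.3 mice, -0.01 between Sle1.3 and WT and -0.33 between Sle1.3/E2-2het and WT. H2-Q4, a non-classical heavy chain, was 9.22, 8.88 and 9.97 in Sle1.3/E2-2het mice, 9.69, 10.04 and 10.31 in Sle1.3 mice and 10.18 and 10.06 in WT mice. The low H2-Q4 arrays were Sle1.3/E2-2het mice 1 and 2, as for Tap1. In the first array set 3 of the 7 passed as lower against WT, where 23.4% of all genes did, H2-Q4 by -1.06 (limma adjusted p = 0.0029) and H2-M3, which presents formylated peptides, by -0.69 (adjusted p = 0.013). Of 7 other loading genes, which include chaperones and trimming enzymes, 4 passed as lower there, among them the glycan-processing Ganab (-0.62) and Uggt1 (-0.69). With the replicate block 3 heavy chains and 3 loading genes passed as lower against WT, where 27.3% of genes did, and 2 heavy chains passed as lower than in Sle1.3 mice, where 1.2% did.

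Of 18 measured genes for interferon-γ signalling and class I regulators, 4 passed as lower in Sle1.3 than in WT mice and 3 in Sle1.3/E2-2het than in WT mice, against 3.22% and 3.73% of all genes, and none between the Sle1.3 genotypes. Ifngr2, the second receptor chain, was 9.80, 9.75 and 10.27 in Sle1.3/E2-2het mice, 9.45, 9.62 and 9.27 in Sle1.3 mice and 10.66 and 10.75 in WT mice. Jak2, the kinase bound to that chain, was 8.82, 8.95 and 9.25 in Sle1.3/E2-2het mice, 8.99, 9.27 and 8.91 in Sle1.3 mice and 9.91 and 10.05 in WT mice. Both were higher in every WT mouse than in any other mouse. In limma, Ifngr2 fell by 1.26 in Sle1.3 (adjusted p = 0.00988) and by 0.77 in Sle1.3/E2-2het mice (0.0483) against WT, and Jak2 by 0.93 (0.0229) and 0.98 (0.0201). Ifngr1 in Sle1.3 (-0.88, adjusted p = 0.0273) and the NF-κB subunit Rela in both genotypes (-1.08 in Sle1.3 and -1.11 in Sle1.3/E2-2het) also passed as lower. Of the 18, 11 passed as lower for Sle1.3/E2-2het (23.4% of all genes) and 5 for Sle1.3 mice (10.7%) within the first array set. With the replicate block 12 (27.3%) and 8 (20.3%) did, and 1 passed as lower in Sle1.3/E2-2het than in Sle1.3 mice (1.2%).

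Of 8 measured interferon-γ-induced GTPases none passed with genotype alone fitted, with medians of -0.36 in Sle1.3/E2-2het relative to Sle1.3 mice, 0.03 between Sle1.3 and WT and -0.24 between Sle1.3/E2-2het and WT. Gbp7 had the smallest p of the 8 in 2 comparisons, with differences of 0.67 ± 0.21 between Sle1.3 and WT (limma adjusted p = 0.0918) and -0.66 ± 0.19 in Sle1.3/E2-2het relative to Sle1.3 mice (0.528), and neither passed. In the first array set Gbp7 passed as higher in Sle1.3 than in WT mice (0.66, limma adjusted p = 0.0477), 1 other GTPase passed as lower there, and Irgm1 (-1.05, 0.0029) was among 2 that passed as lower in Sle1.3/E2-2het than in WT mice. Among all genes 5.16%, 10.7% and 23.4% passed in these comparisons and directions. With the replicate block the GTPase counts were 1, 1 and 3, against 9.19%, 20.3% and 27.3% of all genes. Of 16 tested type I interferon-stimulated genes 1 passed with genotype alone fitted, Oas1a, an RNA-sensing synthetase. It was higher than WT in Sle1.3/E2-2het (0.82) and in Sle1.3 mice (0.87), where 3.46% and 2.66% of all genes passed as higher. In the first array set 3 passed as higher and 2 as lower in Sle1.3/E2-2het than in WT mice, against 10.6% and 23.4% of all genes, and 4 as higher in Sle1.3 than in WT mice, against 5.16%. With the replicate block 3 passed as higher and 3 as lower for Sle1.3/E2-2het against WT (12.8% and 27.3%), and 7 as higher in Sle1.3 mice (9.19%).

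By root-mean-square distance between profiles over the 8 arrays, each centred on its own mean, the genes closest to the mean profile of the 10 were Ppip5k2 (0.058), Srp72 (0.063), Kpna3 (0.065), Cnst (0.067) and Aim2 (0.071), against a median of 0.283 over all genes. The 10 genes themselves lay from 0.112 (Psme1) to 0.335 (Psme2) from their mean, so Psme2 and Tap1 (0.290) were further from that mean than the median gene was.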

How the data were processed

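Per the labels' protocols, total RNA of splenocytes was labelled with a whole-transcript kit and hybridised to 8 arrays. The deposited table holds linear intensities of 35556 probe sets, made with RMA and Affymetrix Expression Console per the submitters' processing notes; versions are not given in the sources used here. The log2 of each deposited intensity was taken here. Of the probe sets, 21797 had 1 gene symbol in the platform annotation, 1613 several and 12146 none. Each of 19946 genes was represented by its highest-mean probe set, and the 14959 genes above the 25th percentile (log2 of 5.00) were tested.

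limma 3.58.1 in R 4.3.3 (lmFit, eBayes) was fitted to genotype over all 8 arrays and tested on simulated data first. The labelled sex was left out because it falls together with the array set within each Sle1.3 genotype, in opposite directions. It also goes against the sex-linked genes of 1 Sle1.3 mouse. Labelled sex was tried as an alternative. Mice of the Sle1.3 genotypes that share a number deviated from their group means together (correlations 0.573, 0.369 and 0.618), so the numbers were taken to pair them. Mice of different numbers had correlations from -0.536 to 0.119. Pair 3 is the second array set, and deviations within a group sum to 0. A difference between array sets therefore also moves mice 1 and 2 of both genotypes together, and the pairing partly restates the array set. The pairing comes from the data, not from the labels. The replicate block also placed WT mice 1 and 2 with the mice of their number, and no such correlation was computed for WT. Each array is a separate mouse per the design text, and precision is limited by there being only 8. The members and the other gene lists were chosen with earlier results of these data known. All 10 genes are named in every comparison; of any other list, at most 4 passing genes are named or, where none passed, at most 2 by smallest p. Every column of the deposited table belonged to a sample.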

Additional observations from a re-analysis of the deposited data

How the results depend on the processing

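With 2 or 3 mice per group and no detection calls, small differences could not be resolved. Of 10 genes, the number passing in Sle1.3/E2-2het relative to Sle1.3 mice, 0 as reported, was 1 with the array set as a block, 1 in the first array set, 3 with the replicate block and 0 to 1 when single arrays were left out (1 without Sle1.3/E2-2het mouse 3). Between Sle1.3 and WT, 0 as reported, it was 1 under each of these 3 settings, 2 with quantile normalization and 0 to 1 with single arrays left out (1 without Sle1.3/E2-2het mouse 3). Between Sle1.3/E2-2het and WT, 1 as reported, it was 3 under each of the 3 and with median centring, 0 with labelled sex or without a filter, and 0 to 3 with single arrays left out (3 without Sle1.3/E2-2het mouse 3). Where 1 WT mouse was left, it was assumed to vary like the other groups. Among the 10 genes the replicate block changed no call other than those given beside its values. Settings that combine 2 choices were chosen after the data were seen. With quantile normalization and the array-set block 4 (Sle1.3 and WT) and 2 (Sle1.3/E2-2het and WT, Tap1 lower and Nlrc5 higher) passed, in the first set with quantile normalization 3 and 2, and with either 0 in Sle1.3/E2-2het relative to Sle1.3 mice. With the mean of a gene's probe sets, 1, 1 and 4 passed in the first array set and 2, 1 and 4 with the replicate block, in the order Sle1.3/E2-2het against Sle1.3, Sle1.3 against WT, Sle1.3/E2-2het against WT. The median Sle1.3 difference from WT was -0.0031 with median centring, 0.30 with quantile normalization, 0.34 and 0.31 with it and the block or the first set, and 0.025 and -0.0094 for the mean of probe sets in the first set and with the replicate block. Signs turned for differences near 0. Nlrc5 between the Sle1.3 genotypes was -0.011 with median centring and -0.37, -0.46 and -0.37 as the mean of probe sets, alone, in the first set and with the replicate block; against WT these 3 settings gave -0.0091, -0.096 and -0.14 in Sle1.3 and -0.37, -0.55 and -0.51 in Sle1.3/E2-2het mice. In Sle1.3 against WT, Psme1 was -0.066 (median centring), -0.010 (labelled sex), -0.074 (array-set or replicate block, also with the mean of probe sets) and -0.028 (first set), B2m was -0.025 (median centring), and Tap2 was 0.031 (first set with quantile normalization). In Sle1.3/E2-2het against WT, Psmb9 was -0.061 (median centring), -0.070 (either block) and -0.11 (first set), and Psme2 was 0.015 (either block) and 0.047 (first set). With quantile normalization alone, with the block and in the first set, Psmb8 was 0.077, 0.024 and 0.038, Psmb10 0.25, 0.27 and 0.26, Psme1 0.080, 0.016 and 0.0033, and Psme2 0.10, 0.36 and 0.42. With single arrays left out, Nlrc5 between the Sle1.3 genotypes ran from -0.044 to 0.10 and Psme1 in Sle1.3 against WT from -0.028 to 0.16. In Sle1.3/E2-2het against WT, B2m ran from -0.12 to 0.075, Psmb10 from -0.20 to 0.15, Psmb9 from -0.11 to 0.27 and Psme2 from -0.28 to 0.047. The causes of these shifts were not tested.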
